A study of Mus musculus with 8 samples.

Results

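The subject is a group of 8 mouse genes for transcription regulators that act upstream of muscle determination: the Pax genes Pax7 and Pax3, the sine oculis homologues Six2, Six4 and Six5, and the Eya genes Eya1, Eya3 and Eya4. They were taken as a fixed list of names, matched to the Ensembl identifiers of a table of 27554 genes, and all 8 passed the filter on low counts. RNA was sequenced from muscle stem cells sorted from hindlimb muscle of female and male mice that carry 2 reporter alleles, Pax7tm3955(T2A-ZsGreen)Tac and Myf5tm3956(T2A-E2Crimson)Tac, on a C57BL/6NTac background. Cells positive for the Pax7 reporter were taken from the high end (Myf5High) and the low end (Myf5Low) of E2Crimson fluorescence, which gave female Myf5High, female Myf5Low, male Myf5High and male Myf5Low groups of 2 libraries each, with a pool of 4 mice behind each library. Every group carries both reporter alleles, so no library comes from mice without them, and the labels give neither the age of the mice nor how many copies of each allele they had. The 2 libraries of a group came from different pools, while within a sex the same pool numbers recur in Myf5High and Myf5Low, which may therefore share their mice.

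Pax3 and Pax7 are closely related DNA-binding proteins with a paired domain and a homeodomain. In the embryo Pax3 is needed for limb muscle precursors to migrate, and in the adult Pax7 marks and maintains the muscle stem cells, while Pax3 persists in those of a subset of muscles. Six2, Six4 and Six5 belong to a family of homeodomain factors, several of which bind MEF3 sites in promoters such as that of Myog. Eya proteins do not bind DNA themselves and serve as coactivators of that family, with a phosphatase domain of their own, and Dach proteins are cofactors of the same network. Together these factors lie above the myogenic regulatory factors Myf5, Myod1, Myf6 and Myog, which drive commitment and differentiation to muscle.

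None of the 8 genes passed the test in any comparison, and 0 of 8 were called between Myf5High and Myf5Low, where edgeR called 1.2% of all 11730 genes tested (adjusted p under 0.05). At an unadjusted p under 0.05 there was 1 of 8, Pax3, against 9.36% of all genes, and DESeq2 also called 0 of 8. The nearest to a difference was Pax3, 1.82 times as high in Myf5High. Pax7, by whose reporter all cells were gated, was by far the most abundant of the 8 and varied least. The widest differences between libraries were in Six2 and Six4, which had their lowest value in the same library and their highest value in the same library. The share of all genes with these same lowest and highest libraries was not counted.

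Levels are given as normalised CPM, a gene's counts per 1000000 of the library's total over the 11730 genes tested, after TMM scaling. A value of 3 counts corresponded to between 0.672 and 0.986 CPM in the 8 libraries. Totals over all genes, tested or not, ranged from 3140361 to 4238427 counts. The muscle stem cell markers, 12 genes including Pax7, Vcam1, Cdh15, Chodl and Calcr, had counts in every library, and their summed level was 6696 to 8667 CPM. Male Myf5High replicate 2 had the lowest scaling factor (0.876) and the highest share of counts on the transcript Gm42418 (28.8%, against 20.1% to 26.2% in the other libraries), known to overlap a ribosomal RNA repeat. Because that library held the lowest Six2, Six4 and Pax7 values, results for these genes are also given without it, and its part in them was otherwise not tested. The library with the highest Six2 and Six4 values, female Myf5Low replicate 2, had the highest scaling factor (1.11). In bulk RNA, fewer cells with a transcript and less of it per cell cannot be told apart.

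The levels of the 8 genes were first ordered against each other per kilobase of annotated exon, together with their relatives Eya2 and Dach1. Pax7 (ENSMUSG00000028736, chromosome 4, 139737062 to 139833528) had 219.6 ± 26.6 CPM per kb (SD, n = 8), and only 94 of 11727 tested genes with a known length were higher. Its range over libraries, 170.8 to 255.7 CPM per kb, did not overlap that of any other gene compared. The rest formed a continuous series on this scale. Eya1 had 7.08 ± 1.25, Six2 6.00 ± 3.39, Eya4 4.99 ± 1.04 and Pax3 4.57 ± 1.93 CPM per kb (SD, n = 8 each). Six5 had 3.32 ± 1.20, Eya3 3.04 ± 1.17 and Six4 1.70 ± 0.818 CPM per kb (SD, n = 8 each). Below Pax7, every gene overlapped its neighbour in this order. Eya1 was above Eya2, which had 7.08 ± 2.31 CPM per kb (SD, n = 8), in 5 of 8 libraries, and Six2 was above Eya4 in 4 of 8. The annotated exons of Six4 span 10855 bp, the longest of the 8, so its place at the bottom of the order depends on how much of that length is transcribed in these cells, which was not tested.

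**Figure D1:**
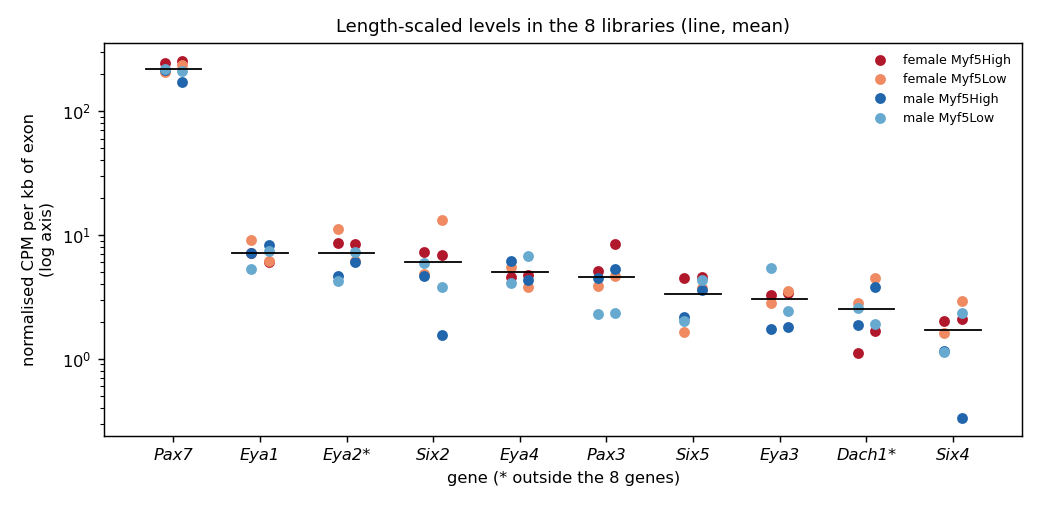
Normalised CPM per kilobase of annotated exon (log axis) for the 8 listed regulators and, marked with an asterisk, Eya2 and Dach1; each point is 1 library coloured by group, and each line is the mean of 8 libraries. Pax7 at a mean of 219.6 stands clear of the genes below, whose ranges run into each other.

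Pax7 had 1441 and 1498 CPM in female Myf5High replicates 1 and 2, and 1210 and 1381 CPM in the female Myf5Low libraries. In males it had 1259 and 1001 CPM in Myf5High and 1279 and 1225 CPM in Myf5Low. The fractions overlapped over all libraries, and only within females was every Myf5High library above every Myf5Low library, a separation that 39.1% of all tested genes had in one direction or the other. The log2 difference (log2 of the fold change) of Myf5High against Myf5Low was 0.02 (standard error 0.17; by edgeR, adjusted p 0.993), and its 95% confidence interval ran from 0.790-fold to 1.30-fold. For females against males the log2 difference was 0.21 (standard error 0.17; by edgeR, adjusted p 0.619), with an interval of 0.906-fold to 1.49-fold. Without male Myf5High replicate 2 the log2 difference between the sexes was 0.14 (by edgeR, adjusted p 0.804) and that between the fractions 0.09 (by edgeR, adjusted p 0.884), so no difference was detected with or without that library. Since cells were gated on the Pax7 reporter, this narrow range describes gated cells.

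Pax3 (ENSMUSG00000004872, chromosome 1, 78101267 to 78197134) was higher in Myf5High in each of the 4 same-numbered pairs, the only one of the 8 genes with 1 direction in all pairs, and 16.3% of all tested genes had that. It had 31.7 and 51.9 CPM in the female Myf5High libraries and 23.9 and 28.9 CPM in the female Myf5Low libraries. Male Myf5High had 27.9 and 32.9 CPM, and male Myf5Low had 14.3 and 14.6 CPM. Both Myf5High libraries of each sex were above both Myf5Low libraries of that sex, and 8.68% of all tested genes were separate in this way in the same direction in both sexes. Over both sexes the Pax3 values of the fractions overlapped, because male Myf5High replicate 1 was just under female Myf5Low replicate 2. Averaged by fraction, Myf5High had 36.1 ± 10.8 CPM and Myf5Low 20.4 ± 7.20 CPM (SD, n = 4 each). The log2 difference was 0.87 (standard error 0.27; by edgeR, p 0.00488, adjusted p 0.186), with a 95% interval of 1.23-fold to 2.70-fold that does not allow for the number of genes tested. DESeq2 gave an adjusted p of 0.135, and over the alternatives run the adjusted p lay between 0.135 and 0.642 and the log2 difference between 0.66 (without female Myf5High replicate 2) and 1.01 (without female Myf5High replicate 1). In females the log2 difference was 0.66 (by edgeR, adjusted p 0.781) and in males 1.07 (by edgeR, adjusted p 0.512). The difference between these, -0.40, did not pass the test of the interaction (by edgeR, adjusted p 1.00). The female value was 0.26 without female Myf5High replicate 2 and 0.96 without female Myf5High replicate 1, and the interaction was then -0.80 and -0.11.

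Taken relative to Pax7 in the same library, which needs no scaling between libraries, the Pax3 level per kb was 2.08% and 3.28% of the Pax7 level in female Myf5High and 1.87% and 1.98% in female Myf5Low. In males it was 2.10% and 3.11% in Myf5High and 1.06% and 1.13% in Myf5Low. On this ratio the 4 Myf5High libraries lay above the 4 Myf5Low libraries without overlap. This held for 1.8% of 11729 genes set against Pax7 in the same way. That share counts only genes with Myf5High above, while the shares given for Pax3 itself count both directions. The ratio was formed after the values of Pax3 had been seen and is a description. Summed marker levels of other cell states were set beside the fractions. All 4 genes of the committed muscle cell list (Myod1, Myog, Mymk, Mymx) were in the table, and their summed level was 21.7 to 74.4 CPM in Myf5High and 172.3 to 743.9 CPM in Myf5Low. Mymk was at 0 counts in every Myf5High library. The 6 immune genes summed to 11.1 to 25.6 CPM in Myf5High and 30.8 to 47.5 CPM in Myf5Low. Tyrobp was at 0 in every Myf5High library and had 1 to 17 counts in Myf5Low. Of single immune genes, C1qa and Tyrobp did not overlap between the fractions, while Ptprc, C1qb, Cd68 and Adgre1 did. Ptprc was highest in female Myf5High replicate 1 (6.15 CPM) and Cd68 in male Myf5High replicate 2 (20.4 CPM). The 6 glial genes summed to 64.2 to 110.1 CPM in Myf5High and 80.2 to 171.5 CPM in Myf5Low, and the 6 mural genes to 327.5 to 475.1 and 351.3 to 730.1 CPM. Endothelial genes summed to 182.3 to 341.0 CPM in Myf5High and 205.5 to 487.2 CPM in Myf5Low, myofibre genes to 60.1 to 214.9 and 124.8 to 191.7 CPM, and fibro-adipogenic genes to 378.4 to 933.9 and 472.0 to 658.5 CPM (6 genes each). The committed and immune sums were lower in Myf5High without overlap, and the other 5 sums overlapped. Of single markers tested, edgeR called Myog and Mymk of the 4 committed genes, C1qa of 5 immune genes and Acta2 of 6 mural genes, each lower in Myf5High, beside 1.2% of all genes. It called 0 of the glial, endothelial, myofibre and fibro-adipogenic genes there, of which 2 had an unadjusted p under 0.05, Pecam1 with a log2 difference of -0.84 and Tek with 0.99. In the mural list 4 of 6 had an unadjusted p under 0.05 (9.36% of all genes), with a list median of -1.03: Acta2, Rgs5 (-0.97) and Myh11 (-1.20) were below 0 and Notch3 (0.62) above. The muscle stem cell markers summed to 6851 to 8667 CPM in Myf5High and 6696 to 7545 CPM in Myf5Low, and 2 of these 12 genes were called beside 1.2% of all genes, Calcr and the gate gene Myf5, both higher in Myf5High (Calcr log2 difference 0.89, edgeR adjusted p 0.0389). At an unadjusted p under 0.05 there were 5 of the 12 (9.36% of all genes), of which Cd34 (log2 difference 0.58) and Sdc4 (0.52) were also higher in Myf5High and Itga7 was lower (-0.47, edgeR p 0.0233). Acta2, which encodes smooth muscle actin, had 40.1 to 68.5 CPM in Myf5High and 139.3 to 335.2 CPM in Myf5Low (log2 difference -1.73, standard error 0.23, adjusted p by edgeR 0.000389). The part of these cells in the Pax3 values was not tested.

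**Figure D2:**
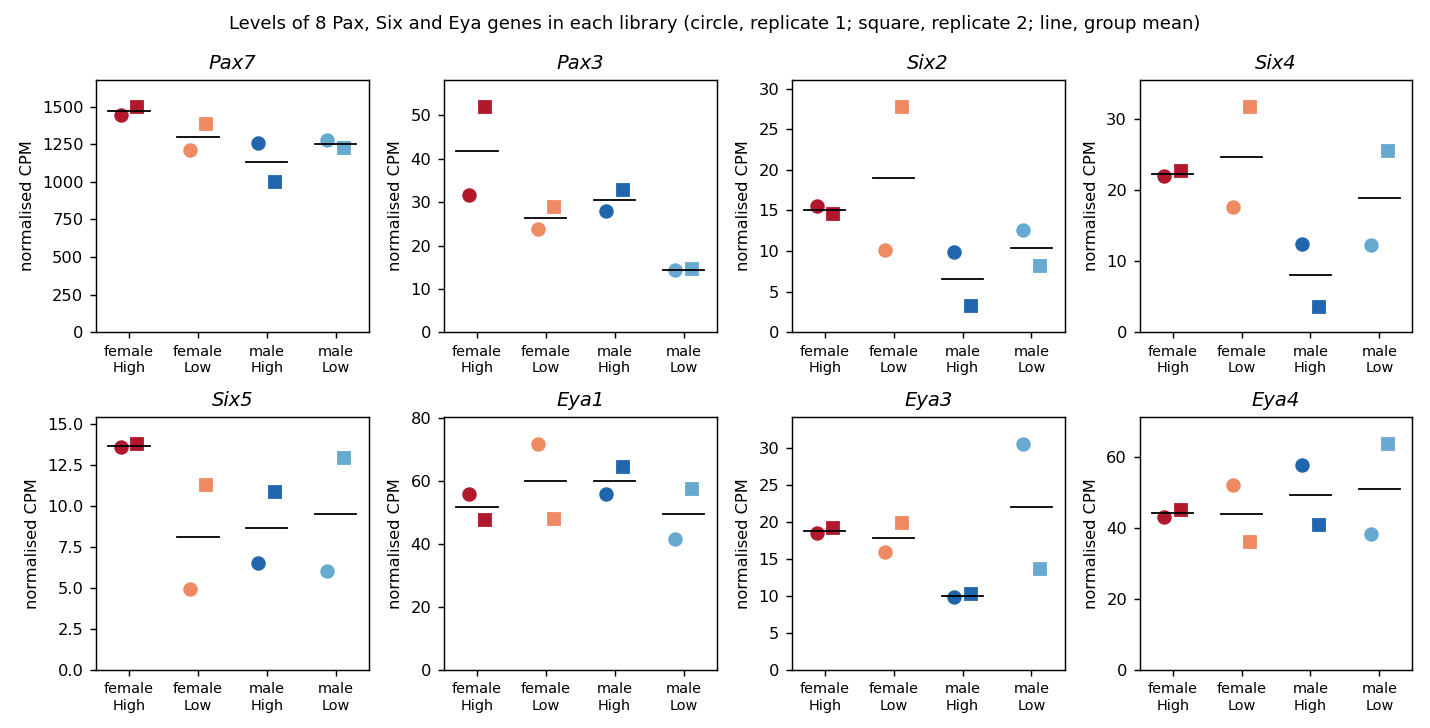
Normalised CPM (linear axes from 0) of the 8 genes in female and male Myf5High and Myf5Low cells; circles are replicate 1, squares replicate 2, and lines the mean of 2 libraries. Pax3 was higher in Myf5High within each sex, while Six2 and Six4 had their lowest point in male Myf5High replicate 2 and their highest in female Myf5Low replicate 2.

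Six2 and Six4 are shown with the sequence before their start sites because they shared their lowest and highest libraries. The sequences are the 250 bases before the start in the RefSeq annotation, 5′ to 3′, with capitals marking the GC box GGGCGG on either strand. RefSeq promoter windows were matched for 6 of the 8 genes, and Pax3 and Eya1 had no match. Of 2 windows listed for Six4, the one nearer the annotated gene start is shown.
Six2, chr17:85688255-85688504, minus strand, GRCm38.p6: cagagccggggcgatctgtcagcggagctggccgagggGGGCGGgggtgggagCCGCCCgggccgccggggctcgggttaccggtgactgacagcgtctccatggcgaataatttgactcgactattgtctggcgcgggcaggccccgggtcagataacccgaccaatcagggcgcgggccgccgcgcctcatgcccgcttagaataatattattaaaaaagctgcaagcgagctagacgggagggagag
Six4, chr12:73113426-73113675, minus strand, GRCm38.p6: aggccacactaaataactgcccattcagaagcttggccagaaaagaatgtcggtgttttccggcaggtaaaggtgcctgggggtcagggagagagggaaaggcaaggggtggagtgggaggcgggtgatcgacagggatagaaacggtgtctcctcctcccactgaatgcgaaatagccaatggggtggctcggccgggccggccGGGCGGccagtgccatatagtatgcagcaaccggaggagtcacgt
In the windows, 4 motifs were searched on both strands: the E-box CANNTG bound by myogenic regulatory factors, the MEF3 site TCAGGTTTC bound by that homeodomain family, the GC box GGGCGG and the TATA box TATAAA. Six2 held 2 GC boxes and Six4 held 1, and neither window held the other motifs, so no matches overlapped. Among 32851 windows of the same length, 32.7% held a GC box, 66.2% an E-box, 12.4% a TATA box and 0.387% the MEF3 letters. All 6 matched members held at least 1 GC box (Pax7, Six5 and Eya4 1 each, Eya3 3), so it does not set Six2 and Six4 apart, and Eya3 also held 1 E-box. The absence of a match says only that these letters are not in these 250 bases. The GC content was 64.8% for Six2 and 58.8% for Six4.

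Six2 (ENSMUSG00000024134, chromosome 17, 85684277 to 85688274), best known from kidney progenitors and also a homeodomain factor, had 15.5 and 14.5 CPM in the female Myf5High libraries and 10.2 and 27.8 CPM in the female Myf5Low libraries. Male Myf5High had 9.85 and 3.29 CPM and male Myf5Low 12.5 and 8.12 CPM. The value of 3.29 CPM in male Myf5High replicate 2 rested on 10 counts, with an exact Poisson 95% interval of 1.58 to 6.05 CPM for counting error only. The fractions overlapped, and the replicates differed by a factor of 2.995 in male Myf5High and of 2.73 in female Myf5Low. The log2 difference between the fractions was -0.48 (standard error 0.43; by edgeR, adjusted p 0.858), with an interval of 0.381-fold to 1.34-fold. Females had 17.0 ± 7.54 CPM and males 8.45 ± 3.89 CPM (SD, n = 4 each), and these libraries overlapped as well. The log2 difference of females against males was 1.02 (standard error 0.43; by edgeR, p 0.0305, adjusted p 0.291). Without male Myf5High replicate 2 these values were -0.21 between the fractions and 0.74 between the sexes (by edgeR, adjusted p 0.89 and 0.474). Without male Myf5High replicate 1 they were -0.99 and 1.53 (by edgeR, adjusted p 0.432 and 0.0662), and without female Myf5Low replicate 2, the highest library, -0.039 and 0.57 (by edgeR, adjusted p 1 and 0.769).

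Six4 (ENSMUSG00000034460, chromosome 12, 73099609 to 73113456), a homeodomain factor that acts in the embryonic activation of muscle genes, had 22.0 and 22.7 CPM in the female Myf5High libraries and 17.6 and 31.8 CPM in the female Myf5Low libraries. In males it had 12.5 and 3.62 CPM in Myf5High and 12.3 and 25.6 CPM in Myf5Low. As with Six2, the lowest library was male Myf5High replicate 2, here with 11 counts (exact Poisson 95% interval 1.81 to 6.47 CPM), and the highest was female Myf5Low replicate 2. Between the fractions the log2 difference was -0.67 (standard error 0.39; by edgeR, adjusted p 0.666). Without male Myf5High replicate 2 it was -0.37 and without male Myf5High replicate 1 it was -1.26 (by edgeR, adjusted p 0.718 and 0.152). In males alone it was -1.20 (standard error 0.56; by edgeR, p 0.0455, adjusted p 0.735). Without male Myf5High replicate 2 the male value was -0.60, and without male Myf5High replicate 1 it was -2.38 (by edgeR, adjusted p 0.733 and 0.173). None of these male fits passed the test, and without male Myf5Low replicate 2 the value was -0.59.

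Female Six4 was 23.5 ± 5.95 CPM and male Six4 13.5 ± 9.05 CPM (SD, n = 4 each), with overlapping libraries. The log2 difference of females against males was 0.91 (standard error 0.39; by edgeR, p 0.0297, adjusted p 0.289). It passed the test without male Myf5High replicate 1 (log2 difference 1.50, edgeR adjusted p 0.0336), which left male Myf5High with replicate 2 alone, assumed to vary like the other groups. Without male Myf5High replicate 2 it was 0.61 (by edgeR, adjusted p 0.488). The call therefore appeared only in the fit in which the library with 11 counts stood for its group. Myod1 had 21.0 CPM in that library and 53.3 to 140.2 CPM in the others. It was highest, at 140.2 CPM, in female Myf5Low replicate 2. Wdr5, a chromatin partner of Pax7 and Pax3 outside the myogenic factors, had the same lowest (11.5 CPM) and highest (37.6 CPM) libraries. The part of commitment in the Six2 and Six4 values was not tested.

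Six5 (ENSMUSG00000040841, chromosome 7, 19094594 to 19098549), which lies next to the myotonic dystrophy gene Dmpk, had 13.6 and 13.8 CPM in the female Myf5High libraries, 4.95 and 11.3 CPM in the female Myf5Low libraries, 6.48 and 10.9 CPM in the male Myf5High libraries and 6.05 and 12.9 CPM in the male Myf5Low libraries. Only in females were the fractions separate (39.1% of all tested genes), and the female log2 difference was 0.74 (standard error 0.63; by edgeR, adjusted p 0.908). That value was 0.27 without female Myf5Low replicate 1 and 1.45 without female Myf5Low replicate 2 (by edgeR, adjusted p 0.972 and 0.946). Over both sexes it was 0.30 (standard error 0.45; by edgeR, adjusted p 0.931), and the interval of 0.642-fold to 2.37-fold includes 2-fold. Without 1 library it ran from 0.069 (female Myf5Low replicate 1) to 0.66 (female Myf5Low replicate 2), and no fit passed the test. In annotated exons, none of the 8 genes overlapped another gene on either strand (GENCODE M21, GRCm38).

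The coactivator genes Eya1 and Eya4 were the steadiest after Pax7. Eya1 (ENSMUSG00000025932, chromosome 1, 14168954 to 14310235) had 55.9 and 47.6 CPM in the female Myf5High libraries, 71.7 and 47.98 CPM in the female Myf5Low libraries, 55.7 and 64.4 CPM in the male Myf5High libraries and 41.4 and 57.6 CPM in the male Myf5Low libraries. The first female pair had less Eya1 in Myf5High, the second was nearly level, and both male pairs had more. The interaction, -0.49 (standard error 0.45; by edgeR, adjusted p 1.00), did not pass the test and was -0.77 without female Myf5Low replicate 2 and -0.18 without female Myf5Low replicate 1. Eya4 (ENSMUSG00000010461, chromosome 10, 23102963 to 23350786) had 43.0 and 45.1 CPM in the female Myf5High libraries and 51.9 and 36.0 CPM in the female Myf5Low libraries. Male Myf5High had 57.6 and 40.8 CPM and male Myf5Low 38.3 and 63.6 CPM. The log2 fold changes between the fractions were 0.03 for Eya1 (standard error 0.23; by edgeR, adjusted p 0.988) and -0.02 for Eya4 (standard error 0.25; by edgeR, adjusted p 0.995). Their intervals were 0.736-fold to 1.43-fold and 0.689-fold to 1.41-fold. Over 8 libraries the coefficient of variation was 17.6% for Eya1 and 20.7% for Eya4, against 12.1% for Pax7, 42.2% for Pax3 and 56.5% for Six2.

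Eya3 (ENSMUSG00000028886, chromosome 4, 132638987 to 132724765) had 18.4 and 19.1 CPM in the female Myf5High libraries and 15.9 and 19.8 CPM in the female Myf5Low libraries. In males it had 9.85 and 10.2 CPM in Myf5High and 30.5 and 13.6 CPM in Myf5Low. Male Myf5High was below every other library (in males, 33.1% of all tested genes had fractions that did not overlap), and male Myf5Low replicate 1 was above every other library. The male log2 difference was -1.14 (standard error 0.48; by edgeR, p 0.03, adjusted p 0.66), the female one 0.07 (standard error 0.47; by edgeR, adjusted p 0.995), and the interaction 1.21 (standard error 0.67; by edgeR, adjusted p 1.00). Without male Myf5Low replicate 2 the male log2 difference was -1.61 (by edgeR, adjusted p 0.528), and without male Myf5Low replicate 1 the male log2 difference was -0.43 (by edgeR, adjusted p 1). In the same fits the interaction was 1.68 and 0.50. Eya1 per kb was 4.09 and 4.57 times Eya3 in male Myf5High and 0.984 and 3.06 times in male Myf5Low, and 1.76 to 3.25 times in females.

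**Figure D3:**
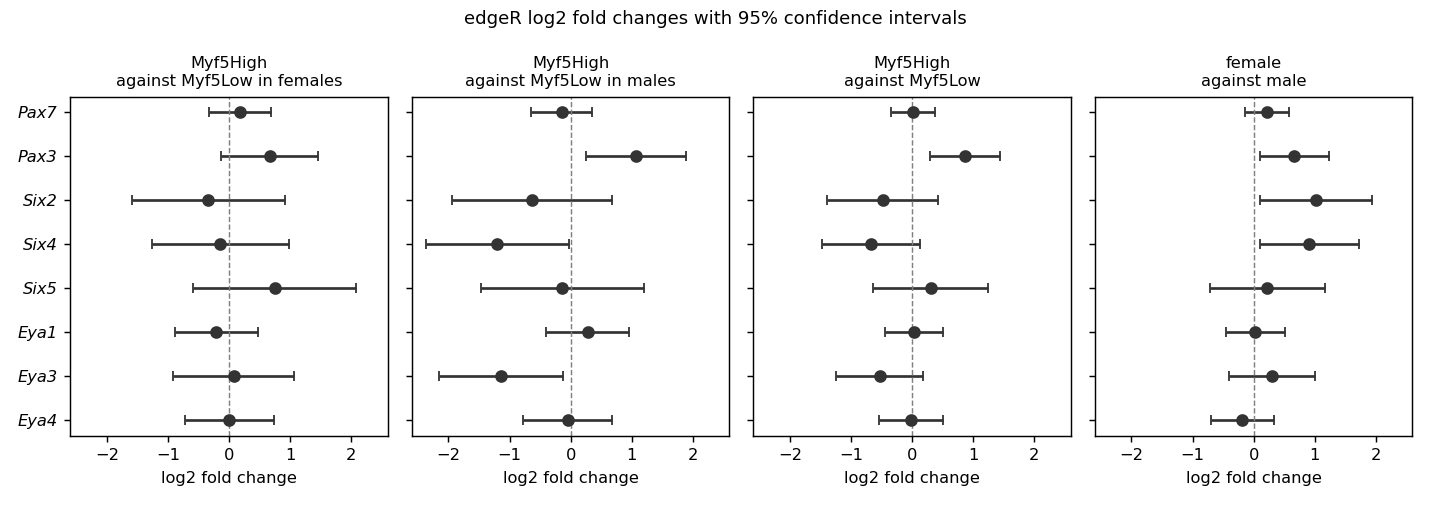
Log2 fold changes (points) with 95% confidence intervals (bars, not adjusted for the number of genes) from the edgeR fit of 8 libraries, for Myf5High against Myf5Low in females, in males and over both sexes, and for females against males. The Pax3 interval over both sexes lies above 0, and no gene passed after adjustment over 11730 genes.

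Taken as a set, 4 of the 8 genes had a log2 difference above 0 and 4 below 0 between the fractions, with a median of -0.0017 beside -0.02 over all genes. In females 0 of 8 were called (0.332% of all genes; 0 of 8 at an unadjusted p under 0.05, against 7.36% of all genes), and in males 0 of 8 (0.171% of all genes; Pax3, Six4 and Eya3 at an unadjusted p under 0.05, against 6.67% of all genes). Between the sexes edgeR called 0 of 8, against 1.65% of all genes, and DESeq2 called 0 of 8. At an unadjusted p under 0.05 there were 3 of 8 (Pax3, Six2 and Six4), against 13.9% of all genes, and each was higher in females. The log2 difference of Pax3 there was 0.67 (standard error 0.27; by edgeR, adjusted p 0.262), and the median over the 8 genes was 0.26 beside -0.02 over all genes. That comparison rests on 2 pools per sex if the fractions of a pool share their mice. In the interaction 0 of 8 were called, against 0% of all genes, with 0 of 8 at an unadjusted p under 0.05 beside 4.54% of all genes, and DESeq2 called 0 of 8 in each of these comparisons. For none of the 8 genes did the libraries of the fractions, or of the sexes, stand apart without overlap, which was so for 4.58% and 7.08% of all tested genes.

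The other genes of the network were described next. Of the 7 other Pax genes, Pax1, Pax2, Pax4, Pax5 and Pax9 had 0 counts in all 8 libraries, and Pax6 and Pax8 had 1 count each in 1 library, so 0 of 7 were tested. Six3 and Six6 also had 0 counts throughout, which allows levels up to the 3-count limit in each library. Eya2 had 12.5 to 33.2 CPM and a log2 difference between the fractions of -0.06 (standard error 0.31; by edgeR, adjusted p 0.986). Dach1 had 8.09 and 12.2 CPM in the female Myf5High libraries and 20.6 and 32.7 CPM in the female Myf5Low libraries, a female log2 difference of -1.38 (standard error 0.49; by edgeR, p 0.0112, adjusted p 0.416). In males Dach1 had 13.7 and 27.95 CPM in Myf5High and 18.8 and 14.1 CPM in Myf5Low, a log2 difference of 0.33, and the interaction was -1.71 (edgeR p 0.0218, adjusted p 1.00). Of the list of 5 other genes (Six3, Six6, Eya2, Dach1 and Dach2), 2 were tested and 0 were called in any comparison by edgeR or DESeq2, with a median between the fractions of -0.29 and 0 of 2 at an unadjusted p under 0.05, beside 1.2% of all genes called there and 9.36% at that unadjusted p. Dach1 alone was under 0.05 without adjustment in females (7.36% of all genes) and in the interaction (4.54%).

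Downstream, 3 of the 4 myogenic regulatory factors were tested between the fractions, and 2 of 3 were called beside 1.2% of all genes (3 of 3 at an unadjusted p under 0.05, beside 9.36% of all genes). Myf5, whose own reporter set the gates, rose in Myf5High (log2 difference 1.19, standard error 0.27, adjusted p by edgeR 0.0284) and Myog fell (log2 difference -8.42, standard error 0.50, adjusted p by edgeR 2.24e-08). Myf5 lost its call in 5 of 8 fits without 1 library, with adjusted p-values up to 0.127 (without female Myf5Low replicate 1). By sex edgeR called it in neither, while DESeq2 called it in females, with an edgeR log2 difference of 1.70 in females (by edgeR, adjusted p 0.0649) and 0.69 in males (by edgeR, adjusted p 0.808), where the libraries overlapped at 73.7 and 39.5 CPM in Myf5High and 41.9 and 28.7 CPM in Myf5Low. Its call over both sexes was lost in the fits without either female Myf5High library (0.103 and 0.0566), female Myf5Low replicate 1, male Myf5High replicate 1 (0.0816) or male Myf5Low replicate 2 (0.116). Myog kept its call in all 8. Its Myf5High libraries held 2, 5, 0 and 2 counts against 392 to 2264 in Myf5Low, so the size of its fitted log2 difference depends on the prior count and is no bound. Myod1 had a log2 difference of -0.97 (standard error 0.26; by edgeR, adjusted p 0.103), and DESeq2 called it. Among 9 listed targets of Pax3 or Pax7, 8 were tested and 1 was called between the fractions, Myf5 itself, beside 1.2% of all genes, with a median of -0.03 and 2 of 8 at an unadjusted p under 0.05, again beside 9.36%. Met, Lbx1, Fgfr4 and Dmrt2, genes of migrating or proliferating precursors, had log2 fold changes of -0.27, 0.07, -0.35 and 1.58 (by edgeR, adjusted p 0.862, 0.977, 0.566 and 0.345). For Lbx1 the value was -0.45 in females and 0.59 in males, and for Fgfr4 0.07 and -0.78. In the interaction 0 of the 8 targets were called by edgeR or DESeq2, with 3 of 8 at an unadjusted p under 0.05 beside 4.54% of all genes. Between the sexes 1 of the 8 was called beside 1.65% of all genes, and 3 of 8 had an unadjusted p under 0.05, beside 13.9% of all genes. Of these 3, Id3 and Myf5 were higher in females and Itm2a was lower (log2 difference -0.72, edgeR p 0.00357, adjusted p 0.109). The called gene was Id3, an inhibitor of basic helix-loop-helix factors, at a log2 difference of 1.46 higher in females (standard error 0.29; by edgeR, adjusted p 0.0133). Id3 lost its call in DESeq2 (adjusted p 0.0704) and without female Myf5High replicate 1 (0.0521) or female Myf5Low replicate 2 (0.0537). Of 5 listed targets of the homeodomain family that binds MEF3 sites, 1 was called between the fractions, Myog, with a median of -0.11. DESeq2 called Myod1 as well. At an unadjusted p under 0.05 there were 3 of 5 (9.36% of all genes). Of these, Myog and Myod1 were lower in Myf5High, and the troponin gene Tnnc1 was higher (log2 difference 3.42, edgeR p 0.0231, adjusted p 0.392). Between the sexes edgeR called 0 of these 5, with 4 of 5 at an unadjusted p under 0.05 (13.9% of all genes) and a median of 0.64, and DESeq2 called Gdnf, a growth factor gene (edgeR log2 difference 1.39 higher in females, adjusted p 0.0552). Tnnc1 had the opposite sign between the sexes, with 0 to 7 counts in female and 0 to 76 counts in male libraries (by edgeR, adjusted p 0.061). Myf5, Myod1 and Myog each stand in 2 of these lists. All 7 chromatin partners of Pax7 and Pax3, among them Carm1 and Paxbp1, were tested, and 0 of 7 were called in any comparison by edgeR or DESeq2. Between the fractions their median was -0.03, with 0 of 7 at an unadjusted p under 0.05 in edgeR. That count was 0 of 7 in males and 1 of 7 in females (Rbbp5), between the sexes (Wdr5) and for the interaction (Carm1), beside 6.67%, 7.36%, 13.9% and 4.54% of all genes in that order.

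**Figure D4:**
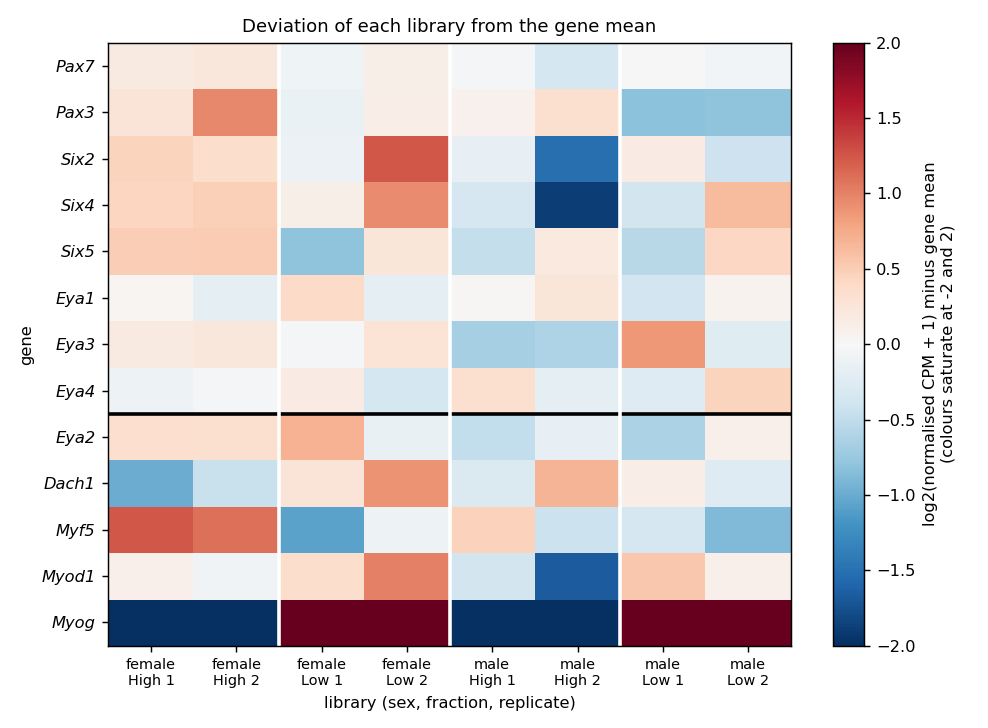
Deviation of log2(normalised CPM + 1) in each library from the mean of the gene over 8 libraries, for the 8 listed regulators (above the line) and for Eya2, Dach1, Myf5, Myod1 and Myog (below it); red is above and blue below the gene mean. Six2, Six4 and Myod1 share their deepest blue in male Myf5High replicate 2, and Myog separates the fractions.

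For the 4 members whose mean reached 20 CPM, the tested genes with the most similar pattern over the 8 libraries were listed, by Pearson's r of log2(normalised CPM + 1) among 9548 genes whose mean reached 5 CPM. Pax7 was most alike to Cd9 (r 0.981), Ryk (r 0.975) and Mgat1 (r 0.973). Pax3 was most alike to Dio2 (r 0.956), Rhoq (r 0.943) and Tcp11l2 (r 0.935). For Eya1 these were Dctn4, Cacna2d1 and Slc15a2 (r 0.942, 0.939 and 0.919), and for Eya4 Diaph2, Dlg4 and Macf1 (r 0.951, 0.941 and 0.926). Values of r this high are the extreme of 9548 genes over 8 points that share their library scaling, and they are a description only. No gene of the 8 appeared among the 3 most alike to another.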

How the data were processed

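Polyadenylated RNA was sequenced with single reads in 8 libraries, per the labels' protocols. The deposited table holds raw counts, whole numbers for each mouse Ensembl identifier, made by the authors with HTSeq on GRCm38 per the submitters' processing notes, and the aligner, annotation release and strand setting are not given in the sources used here. Reads assigned to no gene (42.0% to 45.3% of the tallied reads) were left out. Of 27554 identifiers, 27441 matched GENCODE M21 (GRCm38), which gave symbols, positions and exon lengths, and promoters came from RefSeq on GRCm38.p6. In R 4.3.3, edgeR 4.0.16 kept 11730 genes (filterByExpr by group, minimum count 10, minimum total 15), scaled by TMM, fitted 1 mean per group to 8 libraries (glmQLFit) and tested contrasts (glmQLFTest, two-sided, Benjamini-Hochberg over all genes tested, threshold 0.05). Standard errors came from the F statistic. The fit was tested on simulated data. DESeq2 1.42.0 and other settings were alternatives. Groups came from sample titles. Replicates of each group differed by more than sampling noise (chi-square per degree of freedom 8.42 to 25.8). The p-values measure the spread between libraries within a group, which came from different pools of mice. The main fit had no term for the pool, so between the sexes both fractions of a pool counted as separate observations. The members and lists were chosen with earlier results of these data known. The 8 members were always named, relatives and myogenic regulatory factors could be named, and other listed genes when called. Met, Lbx1, Fgfr4, Dmrt2, Itm2a, Carm1, Paxbp1, Rbbp5, Wdr5, Gdnf and Tnnc1 were named after their values were seen, and so were the markers named. An item of these lists is not reported here.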

Additional observations from a re-analysis of the deposited data

How the results depend on the processing

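Over 547 alternative values for the 8 genes, 1 passed the test, Six4 between the sexes without male Myf5High replicate 1, so the number of called genes of the 8 between the sexes was 0 to 1 over the fits without 1 library and 0 under every other setting and comparison run. A sign changed in 41 of the 547, all of values that had not passed the test. Outside the fits without 1 library these were Eya4 between the fractions with the pool as a replicate block (log2 fold change 0.0025), Pax7 between the fractions under the stricter filter (-0.0030), and Eya4 in females with DESeq2 (-0.0046), no filter (-0.0066), only the 4 female libraries (-0.0011), RLE scaling (-0.0046) and the stricter filter (-0.0091). Without 1 library in turn, the log2 fold change between the fractions was -0.069 to 0.094 for Pax7, -0.097 to 0.19 for Eya1 and -0.18 to 0.18 for Eya4. In females it was -0.48 to 0.10 for Eya1, -0.082 to 0.23 for Eya3, -0.25 to 0.28 for Eya4, -0.89 to 0.55 for Six2 and -0.52 to 0.33 for Six4. In males it was -0.32 to 0.0044 for Pax7, -0.36 to 0.36 for Eya4 and -0.57 to 0.50 for Six5. Between the sexes it was -0.14 to 0.16 for Eya1, -0.35 to 0.016 for Eya4 and -0.14 to 0.54 for Six5, and the interaction was -0.35 to 0.36 for Eya4 and -0.26 to 1.30 for Six2.

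Counts over all genes moved more. DESeq2 called 234 genes between the fractions, 111 in females, 80 in males, 371 between the sexes and 2 for the interaction, where edgeR called 141, 39, 20, 194 and 0. With no filter on low counts these were 291, 167, 111, 477 and 14. Fits of only the 4 female or only the 4 male libraries called 77 and 2. Without 1 library the counts ranged from 82 (female Myf5Low replicate 2) to 243 (male Myf5High replicate 2) between the fractions, 9 to 117 in females, 8 to 74 in males, 82 to 558 between the sexes and 0 to 8 for the interaction. The cause was not tested. The pool as a replicate block called 136 genes between the fractions and 0 of the 8, and changed no call on them. Deviations of same-numbered libraries from their group means correlated by 0.0282 in females and -0.0116 in males, and the labels do not state that they share mice. Six2 and Six4 rested on 10 and 11 counts in male Myf5High replicate 2.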
